A study of Homo sapiens with 18 samples.

Results

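The genes of tight junctions and desmosomes, with those of epithelial adhesion and splicing, were followed in the human cell line NCI-H460, derived from a large cell carcinoma of the lung. They are 39 named genes of 58051 in the tables, chosen by name and function, though with earlier results of these data known. They comprise 14 claudins, 7 other tight junction genes, 11 desmosome and plakin genes and 7 genes of epithelial adhesion, splicing and transcription. RNA sequencing covered 3 populations of the line, the parental cells and 2 populations labelled resistant #1 and resistant #2, called resistant 1 and resistant 2 here. Each population received either DMSO alone (0.7% v/v) or 2 µM all-trans retinoic acid (ATRA) with decitabine, labelled as 50 µM, from 24 h after seeding until harvest at 72 h after seeding. There were 3 replicates per group, labelled biological, and 18 libraries. All 6 groups share the line, the medium and a genotype labelled WT, and the labels do not say how the resistant populations were made, to what they are resistant or whether each is a clone. ATRA activates the retinoic acid receptors, and decitabine is a nucleoside that depletes DNA methyltransferases and so lowers CpG methylation, which was not measured here.

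Tight junctions seal the space between epithelial cells. Claudins and occludin (OCLN) form their membrane strands, F11R (JAM-A) is an immunoglobulin-like adhesion protein beside them, and TJP1, TJP3 and cingulin (CGN) link them to the actin cytoskeleton. Desmosomes hold epithelial cells together mechanically: desmogleins (DSG) and desmocollins (DSC) are their cadherins, plakoglobin (JUP) and plakophilins (PKP) bind the cadherin tails, and desmoplakin (DSP) anchors them to keratin filaments. ESRP1 and ESRP2 control epithelial splicing, grainyhead-like factors (GRHL) activate junction genes, and these genes as a group are known to be lost in epithelial-mesenchymal transition.

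Within a treatment, levels are given as normalized counts, and across treatments as CPM, for which all 18 libraries were scaled together; values with ± are means and SDs over n = 3 libraries. The depth, rounded, was 116900000 to 140900000 reads per library with DMSO and 110700000 to 177500000, over the restored genes, with ATRA and decitabine. The values of the treated libraries had lost their decimal points and were restored, with a posterior of at least 0.99, for 30 of the 39 members. With DMSO 33 members passed the filter (10 or more normalized counts in 3 or more of the 9 libraries), 4 of them (CLDN2, PKP1, EPCAM and CDH3) through 1 population only. With ATRA and decitabine all 30 restored members passed, RAB25 through 1 population only. The labels call the cells epithelial. The keratin KRT8, a marker of simple epithelia, stood at 87429 ± 14728 normalized counts in parental cells with DMSO. E-cadherin (CDH1), a defining epithelial cadherin, was nearly absent with DMSO: it had 1.97, 0 and 2.16 normalized counts in the parental libraries, 0.868, 0.9097 and 0.966 in resistant 1 and 1.03, 0 and 2.17 in resistant 2.

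**Figure D1:**
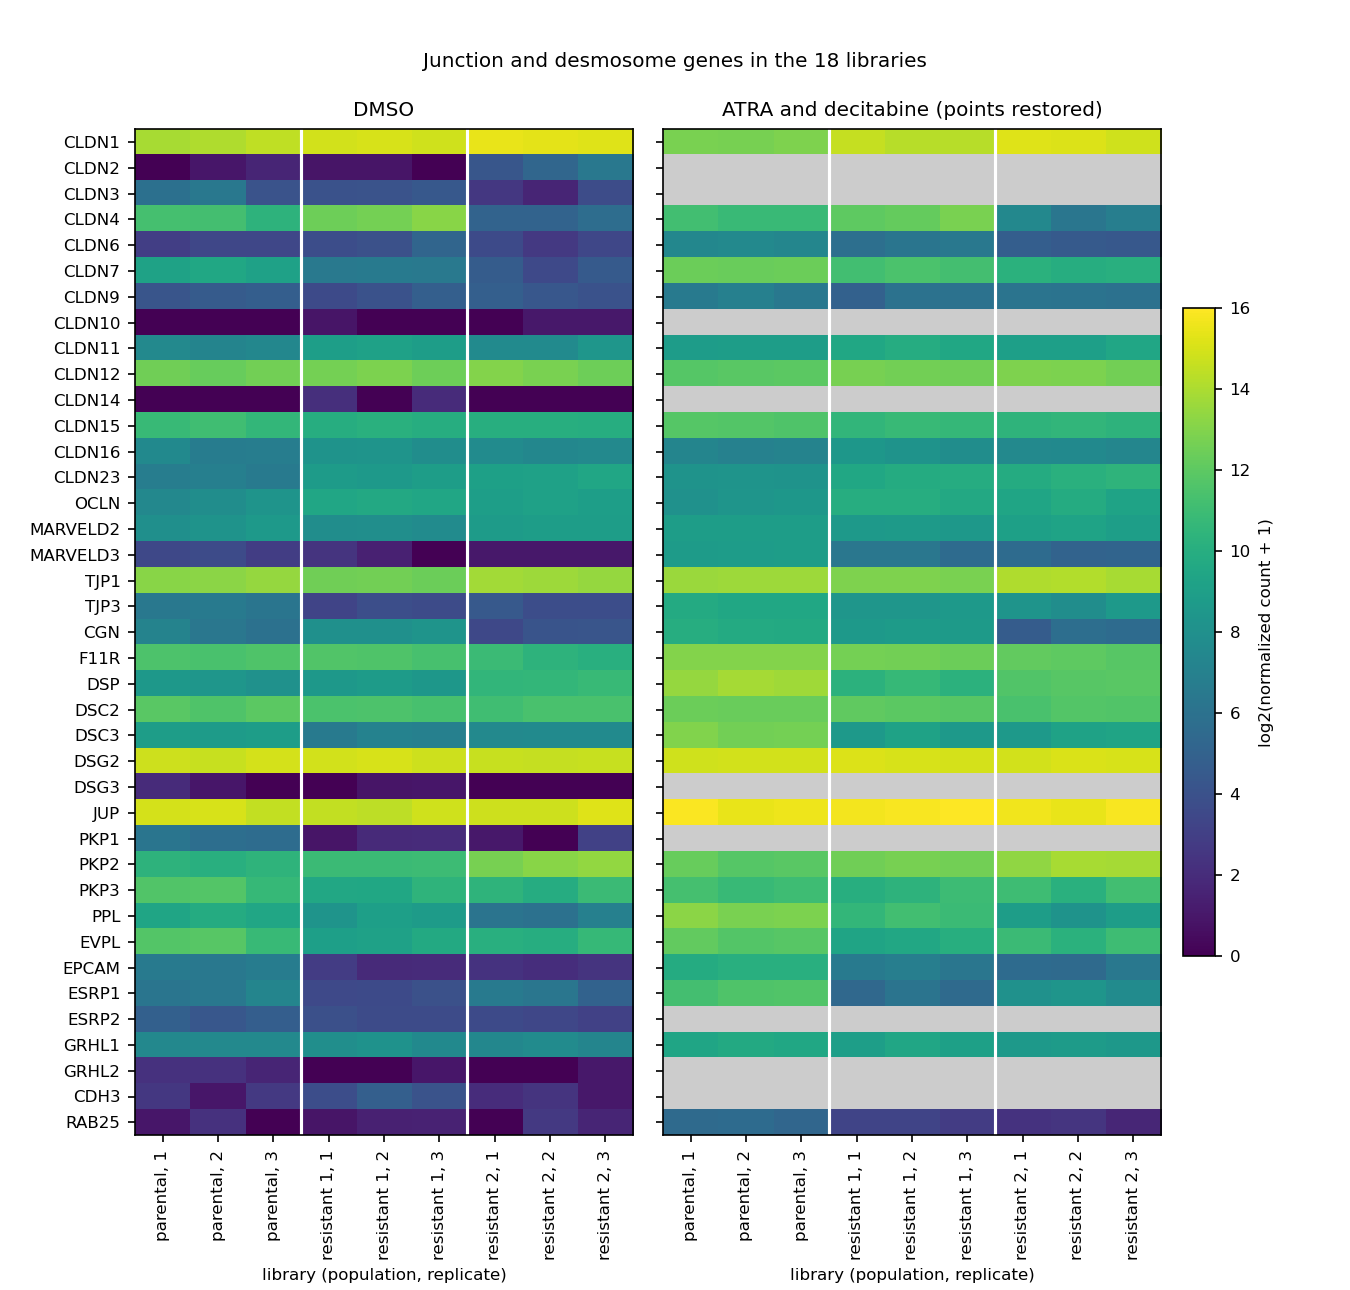
Each row is a member, each column a library, and the colour gives log2(normalized count + 1), from 0 (dark) to 16 (yellow), with DMSO on the left and ATRA and decitabine on the right, each table on its own scale. JUP, DSG2 and CLDN1 are bright in all 9 DMSO libraries, and the 9 grey rows on the right are the members whose treated values could not be restored.

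Parental cells with DMSO carried a partial set of these genes. Per kilobase of exon, a scale on which genes can be compared, the highest were JUP (6018 normalized counts per kilobase), the claudin CLDN1 (5072) and desmoglein 2 (DSG2, 4574), followed by the scaffold TJP1 (884) and CLDN12 (849). DSP, the keratin anchor of the desmosome, was far lower at 32.2, and EPCAM, the epithelial cell adhesion molecule, stood at 37.1. Desmoglein 3 (DSG3), GRHL2, P-cadherin (CDH3) and RAB25, a GTPase of epithelial membrane traffic, each stayed below 1 per kilobase, and CLDN10 and CLDN14 had 0 reads in the 3 parental libraries, where 0 allows up to 3 reads per library. Of the desmosomal cadherins and plakophilins, DSG2 was followed by PKP3 (729.7), DSC2 (292) and PKP2 (178).

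Comparing the resistant populations with parental cells under DMSO asks how they differed without the drugs. The members differed in both directions in each population. In resistant 1, 9 of 33 tested members were higher and 14 lower, beside 29.3% higher and 26.6% lower of all 21643 genes tested (limma, Benjamini-Hochberg adjusted p under 0.05). In resistant 2, 9 were higher and 15 lower, beside 32.1% and 29.8% of all genes. The share of higher members lay near the background in both. The median log2 fold change over the tested members was -0.27 in resistant 1 and -0.24 in resistant 2 against 0.01 and 0.02 over all genes. Both comparisons share the parental libraries. The lower counts include EPCAM and PKP1, and the higher ones CDH3 in resistant 1 and CLDN2 in resistant 2, which passed the filter only through the population where they are high, so that their calls followed from the filter and support nothing. In these bulk samples, fewer cells that express a gene and less RNA per cell cannot be told apart.

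**Figure D2:**
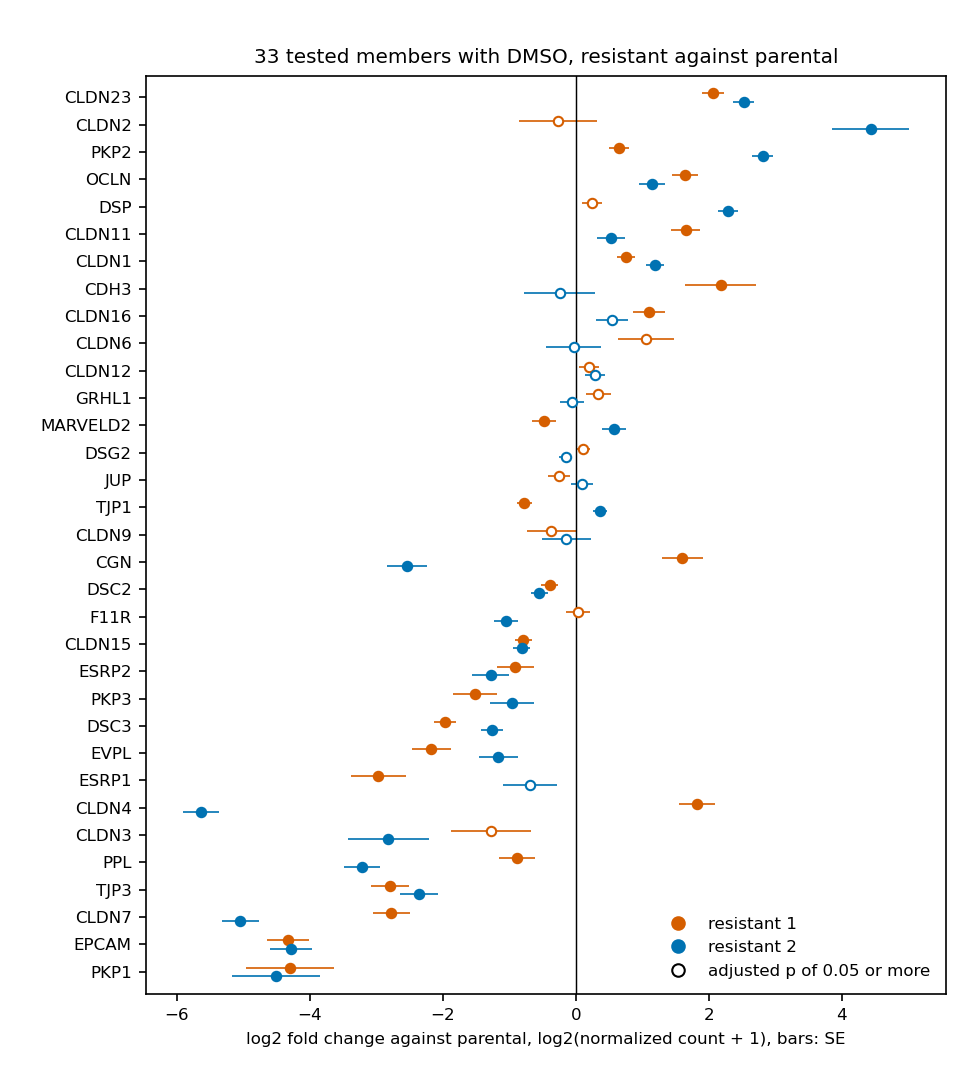
The horizontal axis is the log2 fold change against parental cells with DMSO on the log2(normalized count + 1) scale, with SE bars, for resistant 1 (orange) and resistant 2 (blue); filled points passed an adjusted p of 0.05. PKP1, EPCAM, CLDN7 and TJP3 lie far to the left in both populations, CLDN23 and OCLN to the right in both, and CLDN4 and CGN on opposite sides.

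EPCAM and PKP1 passed the filter through the parental libraries only, so they are given by their values with no test. EPCAM's normalized counts were 92.6, 85.2 and 103 in the parental libraries, 6.08, 2.73 and 2.897 in resistant 1 and 4.11, 3.198 and 4.34 in resistant 2. All 6 resistant libraries lay far below the 3 parental ones, the means being 23.98-fold lower in resistant 1 and 24.1-fold lower in resistant 2. Plakophilin 1 (PKP1), which joins desmosomal cadherins to desmoplakin, stood at 59.05 ± 13.1 in parental, 2.16 ± 1.13 in resistant 1 and 2.88 ± 4.12 in resistant 2 cells.

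Among the claudins, CLDN7 was lower in both resistant populations, and CLDN23 and CLDN1 were higher in both. CLDN7, an epithelial claudin that binds EPCAM, had 597, 726 and 563 normalized counts in parental libraries, 87.7, 96.4 and 86.9 in resistant 1 and 24.6, 10.7 and 21.7 in resistant 2. The 3 groups did not overlap and descended in that order (log2 fold changes -2.78 and -5.05 against parental, and 2.27 between the resistant populations, highest adjusted p = 4.47e-05). CLDN15 was lower in both as well (-0.79 and -0.81). CLDN23 went the other way, from 106 ± 12.03 in parental cells to 446 ± 36.3 and 617 ± 89.2 (log2 fold changes 2.06 and 2.52). CLDN1, the most abundant claudin, was already high in parental cells and higher still in both, at 18578 ± 4033, 31009 ± 1763 and 41790.4 ± 3339.6 (log2 fold changes 0.76 and 1.19, adjusted p = 5.83e-04 and 1.54e-05). CLDN11 was higher in both too, but in resistant 2 only narrowly (log2 fold change 0.53 with SE 0.21, adjusted p = 0.0481). That call was lost when resistant 2 replicate 3 or any parental library was left out. It was also lost with no filter, a replicate block or a fit of only the 2 compared groups. Of the exon bases of CLDN11, 18.3% also belong to another gene on the same strand.

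CLDN4 had the largest log2 fold change between the 2 resistant populations among the 33 members tested. This claudin of simple epithelia had 2534, 2347 and 1319 normalized counts in parental libraries, 5788, 6436 and 9218 in resistant 1 and 33.9, 33.05 and 52.1 in resistant 2. Resistant 1 lay above and resistant 2 below every parental library. The mean was 3.46-fold the parental one in resistant 1 (log2 fold change 1.82 with SE 0.27, adjusted p = 1.79e-04) and 52.1-fold lower than it in resistant 2 (log2 fold change -5.64 with SE 0.27, adjusted p = 2.08e-08). Between the resistant populations the log2 fold change was 7.46 (adjusted p = 3.82e-09). Its neighbour on chromosome 7, CLDN3, was low throughout, at 59.1, 83.3 and 16.2 in parental libraries against 5.14, 2.13 and 11.9 in resistant 2, where it was lower (log2 fold change -2.82 with SE 0.61, adjusted p = 0.00184). CLDN2, a channel-forming claudin, was detected almost solely in resistant 2, at 18.5, 37.3 and 82.5 against 0, 0.958 and 2.16 in parental libraries and 0.868, 0.9097 and 0 in resistant 1.

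Among the other tight junction genes, cingulin, the cytoplasmic linker, had 139, 81.4 and 62.8 normalized counts in parental libraries, 258, 258 and 304 in resistant 1 and 10.3, 17.1 and 17.4 in resistant 2, so that it was higher in resistant 1 (log2 fold change 1.60 with SE 0.31, adjusted p = 0.00102) and lower in resistant 2 (log2 fold change -2.54 with SE 0.31, adjusted p = 2.61e-05), as CLDN4 was. The scaffold TJP1 and tricellulin (MARVELD2), which seals corners where 3 cells meet, were lower in resistant 1 and higher in resistant 2. TJP1 stood at 9960.2 ± 1108 in parental, 5806 ± 412 in resistant 1 and 12804 ± 1342 in resistant 2 cells (log2 fold changes -0.78 and 0.36), and MARVELD2 at 319.5 ± 78.3, 226 ± 19.2 and 467 ± 19.5. These differences were small. The TJP1 call in resistant 2 was lost without resistant 2 replicate 1 or parental replicate 1. The MARVELD2 call in resistant 2 was lost without resistant 2 replicate 2 or parental replicate 1. The MARVELD2 call in resistant 1 was lost without any 1 resistant 1 library or without parental replicate 2 or 3. It was also lost with no filter, a replicate block, TMM scaling or a fit of only the 2 compared groups. OCLN was higher in both populations, at 240.3 ± 70.5, 735 ± 52.4 and 518 ± 36.98 (log2 fold changes 1.65 and 1.14, adjusted p = 3.06e-05 and 3.68e-04). The scaffold TJP3 was lower in both, at 83.1 ± 8.16, 11.3 ± 2.49 and 15.8 ± 5.000. F11R was lower in resistant 2 (log2 fold change -1.05 with SE 0.18, adjusted p = 3.80e-04) and did not pass the test in resistant 1 (log2 fold change 0.03); 36.6% of its exon bases are shared with another gene model on the same strand, so that its reads are uncertain.

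In the desmosome most differences were decreases, and resistant 2 had 2 large increases. Of 10 tested desmosome and plakin genes, 6 were lower in each resistant population (PKP3, DSC2, DSC3, PPL and EVPL, and PKP1, whose call followed from the filter). The small DSC2 difference in resistant 1 (-0.39) was lost without resistant 1 replicate 1 or 3 or parental replicate 1 or 3, and the PKP3 difference in resistant 2 (-0.96) without resistant 2 replicate 1 or 2 or parental replicate 1 or 2. Desmocollin 3 (DSC3) stood at 467 ± 29.2 in parental, 119.8 ± 20.03 in resistant 1 and 195 ± 6.94 in resistant 2 cells (log2 fold changes -1.97 and -1.26). Periplakin (PPL) and envoplakin (EVPL), plakins of the cornified envelope, were lower by unequal amounts: PPL had 685, 909.7 and 715 in parental libraries, 308, 527 and 437 in resistant 1 and 69.8, 61.8 and 124 in resistant 2, and EVPL averaged 2948 ± 1061, 634 ± 167 and 1282 ± 381. The PPL call in resistant 1 (log2 fold change -0.88 with SE 0.27, adjusted p = 0.0177) was lost without resistant 1 replicate 1 or parental replicate 2. The abundant DSG2 and JUP did not pass in either population, with log2 fold changes from -0.25 to 0.11; without parental replicate 2 DSG2 passed as lower in resistant 2. DSP and plakophilin 2 (PKP2) were instead high in resistant 2. DSP had 370.2, 332 and 273 in parental libraries, 368, 434 and 353 in resistant 1 and 1473, 1550.0 and 1731 in resistant 2, a 4.87-fold higher mean in resistant 2 (log2 fold change 2.29 with SE 0.15, adjusted p = 2.14e-07). PKP2 averaged 1251 ± 147, 1955 ± 75.2 and 8868 ± 1939, 7.09-fold the parental level in resistant 2 (log2 fold change 2.81 with SE 0.15, adjusted p = 5.26e-08).

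Of the epithelial regulators, ESRP1 was lower in resistant 1, at 10.4, 10.9 and 14.5 against 74.8, 85.2 and 154 in parental libraries (log2 fold change -2.97 with SE 0.41, adjusted p = 9.48e-05). In resistant 2 it had 94.5, 76.8 and 31.5 and overlapped the parental libraries (adjusted p = 0.166). ESRP2 was low in all groups, at 24.6 ± 4.86, 12.4 ± 1.27 and 9.498 ± 1.85, and passed as lower in both. Its call in resistant 1 was lost without parental replicate 1 and with no filter. GRHL1 did not pass in either population, with means of 183, 234 and 177. GRHL2 had 4, 4 and 2 reads in the parental libraries, 0, 0 and 1 in resistant 1 and 0, 0 and 1 in resistant 2, under the filter.

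The resistant populations also differed from each other with DMSO. In resistant 1 against resistant 2, 10 of 33 members were higher and 10 lower, beside 27.4% and 26.0% of all genes. Both counts lay near the share over all genes. CLDN4, CGN, PPL, CLDN7 and F11R were higher in resistant 1, and PKP2, DSP, ESRP1 and TJP1 in resistant 2; the counts include CLDN2 and CDH3, which passed the filter only through the population where they are high.

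The second question is how each population responded to the drugs, on the log2(CPM + 1) scale with all 18 libraries scaled together over 20951 genes. In parental cells 19 of 30 restored members rose and 3 fell, beside 32.9% of all genes rising and 32.6% falling. The members' median response was 0.62 against -0.0042 over all genes. The rise took in 6 of 10 claudins, 4 of 7 other tight junction genes, 5 of 9 desmosome and plakin genes, and all 4 restored adhesion and regulator genes (EPCAM, ESRP1, GRHL1 and RAB25). RAB25 and MARVELD3 did not pass the filter with DMSO and entered through treated libraries only, RAB25 through parental ones. Their rises, which are in these counts, followed from the filter and support nothing. DSP, ESRP1 and DSC3, which had been low, rose most, while CLDN1, the most abundant claudin, fell.

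**Figure D3:**
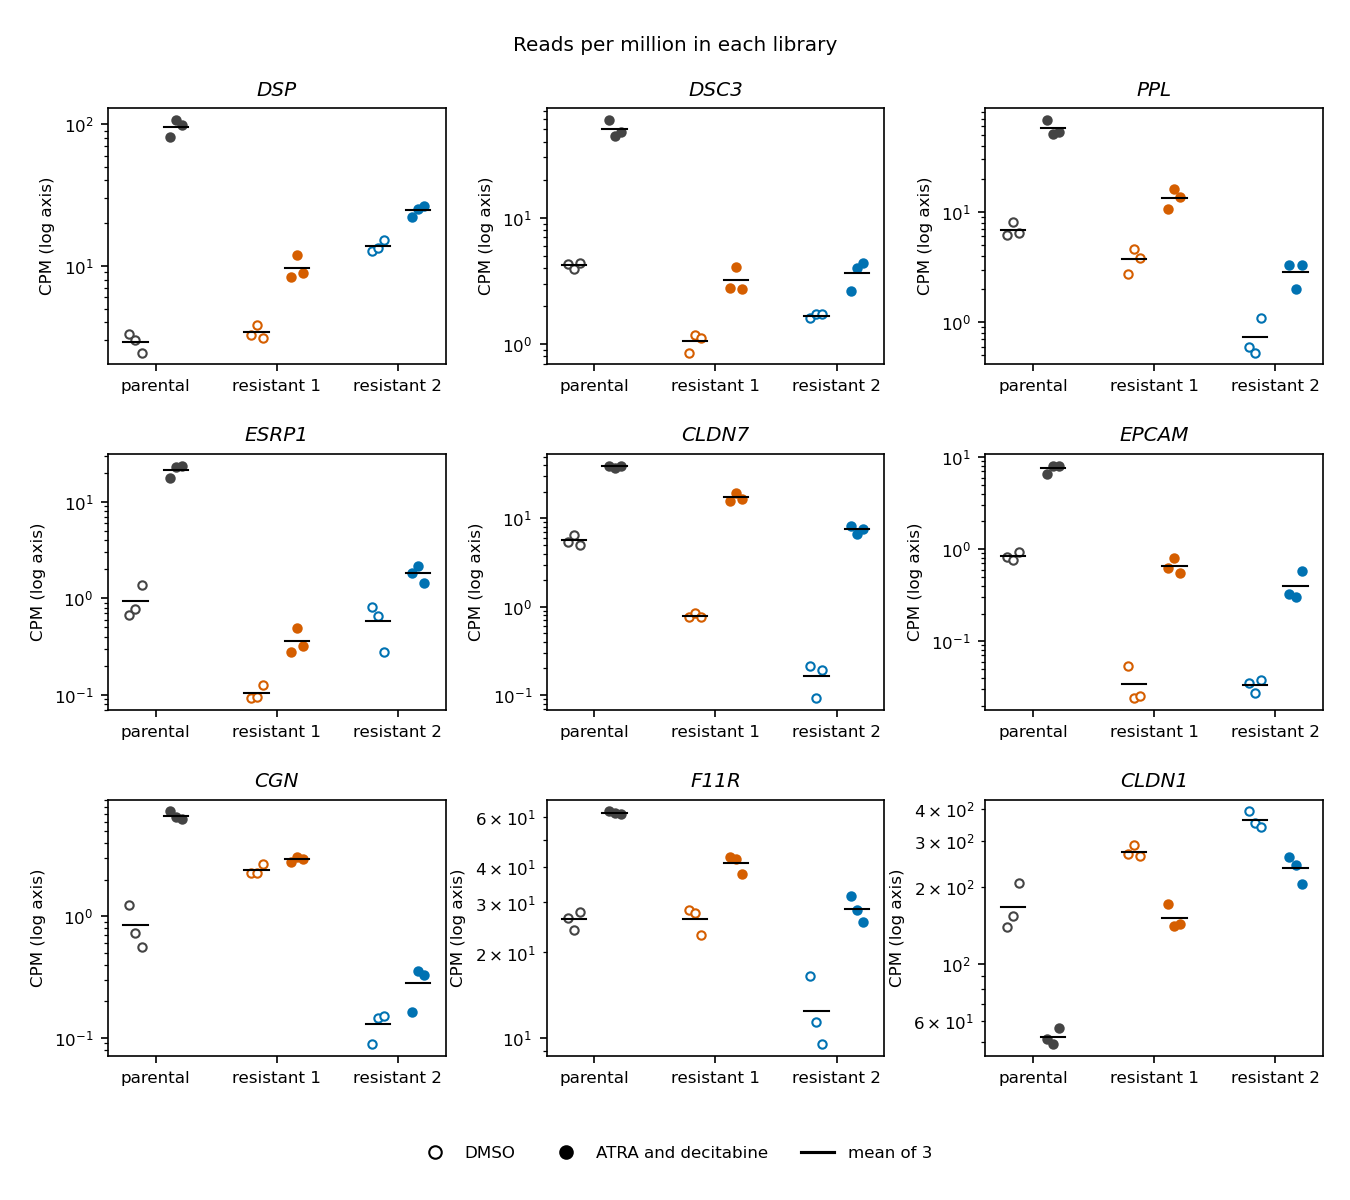
CPM (log axis, its range differing between panels) of 9 members in each library, open for DMSO and filled for ATRA and decitabine, with a line at the mean of 3. In parental cells the filled points lie above the open ones for 8 of the genes, by 32.9-fold for DSP, and below them for CLDN1; the resistant libraries moved less for DSP, DSC3, ESRP1 and CGN.

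DSP (ENSG00000096696, chromosome 6, 7541575 to 7586717, GRCh38) had the largest response on this scale. It stood at 3.32, 2.99 and 2.44 CPM in the parental libraries with DMSO and at 81.5, 107 and 99.1 with ATRA and decitabine, 32.9-fold higher (log2 fold change 4.61 with SE 0.14, adjusted p = 3.63e-14). In resistant 1 it went from 3.25, 3.798 and 3.11 to 8.37, 11.8 and 8.84, and in resistant 2 from 12.7, 13.3 and 15.2 to 22.2, 24.97 and 26.6. The treated resistant libraries all stayed below the lowest treated parental one, although resistant 2 had begun above the parental level. The responses were 1.26 and 0.81, and the difference from the parental response was -3.35 (SE 0.19, adjusted p = 7.73e-10) in resistant 1 and -3.80 (SE 0.19, adjusted p = 1.19e-10) in resistant 2. Counting reads with edgeR gave similar differences of -3.52 and -4.17.

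DSC3 (ENSG00000134762, chromosome 18, 30990008 to 31042815), the desmosomal cadherin, had 4.303, 3.899 and 4.37 CPM in parental libraries with DMSO and 59.6, 44.4 and 47.4 with the drugs (log2 fold change 3.28 with SE 0.15, adjusted p = 9.66e-12). In resistant 1 it went from a mean of 1.05 to 2.800, 4.08 and 2.76, and in resistant 2 from a mean of 1.68 to 2.63, 4.01 and 4.398. The treated resistant libraries overlapped the untreated parental ones in DSC3 and lay far below the treated parental ones, with differences of responses of -2.26 (SE 0.21, adjusted p = 3.03e-07) and -2.49 (SE 0.21, adjusted p = 7.48e-08). PPL (ENSG00000118898, chromosome 16, 4882507 to 4960741) rose in parental cells from 6.91 ± 1.103 to 57.6 ± 9.67 CPM. It also rose in resistant 1, from 3.73 ± 0.952 to 13.5 ± 2.84, and in resistant 2, from 0.739 ± 0.301 to 2.86 ± 0.746, by less on the log scale (differences -1.26 and -1.71, adjusted p = 0.00147 and 8.16e-05). Of the other desmosome genes, PKP2 rose in parental cells (1.30) and resistant 1 (1.28) but did not pass in resistant 2 (0.25), where it was already high. Its difference from the parental response in resistant 2 was -1.06 (SE 0.23, adjusted p = 9.51e-04). JUP rose in parental cells from 267 ± 49.7 to 380.0 ± 57.4 CPM and in resistant 1 from 219 ± 35.9 to 438 ± 72.7; the parental call was lost without parental ATRA and decitabine replicate 1 or parental DMSO replicate 3. EVPL and PKP3 did not pass in any population with all libraries, and PKP3 passed as lower in parental cells without parental DMSO replicate 3.

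Decitabine lowers methylation at CpG sites, and the promoter windows of the genes that carry these results differ in how many they hold, as the sequences below show. They are from RefSeq (GRCh38.p14), run 5′ to 3′ on the gene's strand from 250 bases before to 50 after a transcript start, and carry every CpG in capitals. DSP and DSC3 had the largest parental responses among members with a listed window and CLDN7, with both of its starts, the next, while CLDN4 differed most between the populations.
DSP (chr6:7541421-7541720, plus strand): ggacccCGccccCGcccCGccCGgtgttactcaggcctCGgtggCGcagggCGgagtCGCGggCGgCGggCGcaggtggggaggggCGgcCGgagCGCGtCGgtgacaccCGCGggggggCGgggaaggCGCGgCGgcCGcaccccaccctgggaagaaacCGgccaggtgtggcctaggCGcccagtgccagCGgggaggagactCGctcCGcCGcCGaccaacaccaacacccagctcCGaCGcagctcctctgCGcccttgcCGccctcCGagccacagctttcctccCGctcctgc
DSC3 (chr18:31042693-31042992, minus strand): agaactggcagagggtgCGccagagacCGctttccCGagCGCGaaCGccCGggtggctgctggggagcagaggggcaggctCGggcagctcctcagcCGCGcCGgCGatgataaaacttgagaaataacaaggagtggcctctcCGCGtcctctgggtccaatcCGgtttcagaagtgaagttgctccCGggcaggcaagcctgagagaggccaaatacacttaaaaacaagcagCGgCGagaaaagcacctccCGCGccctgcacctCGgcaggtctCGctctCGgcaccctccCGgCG
CLDN7, downstream start (chr17:7262429-7262728, minus strand): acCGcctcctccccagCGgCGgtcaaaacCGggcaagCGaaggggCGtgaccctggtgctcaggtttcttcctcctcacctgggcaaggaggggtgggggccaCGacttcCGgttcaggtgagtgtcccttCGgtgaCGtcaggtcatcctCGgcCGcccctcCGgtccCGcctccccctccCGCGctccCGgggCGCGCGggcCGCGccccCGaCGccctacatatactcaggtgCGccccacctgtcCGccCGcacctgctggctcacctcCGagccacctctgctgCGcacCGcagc
CLDN7, upstream start (chr17:7263164-7263463, minus strand): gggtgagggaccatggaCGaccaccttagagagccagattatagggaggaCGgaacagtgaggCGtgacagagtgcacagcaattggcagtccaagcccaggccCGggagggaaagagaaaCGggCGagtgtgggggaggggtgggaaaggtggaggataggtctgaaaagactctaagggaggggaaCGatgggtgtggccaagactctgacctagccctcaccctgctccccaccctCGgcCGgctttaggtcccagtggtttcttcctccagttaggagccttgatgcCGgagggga
CLDN4 (chr7:73830746-73831045, plus strand): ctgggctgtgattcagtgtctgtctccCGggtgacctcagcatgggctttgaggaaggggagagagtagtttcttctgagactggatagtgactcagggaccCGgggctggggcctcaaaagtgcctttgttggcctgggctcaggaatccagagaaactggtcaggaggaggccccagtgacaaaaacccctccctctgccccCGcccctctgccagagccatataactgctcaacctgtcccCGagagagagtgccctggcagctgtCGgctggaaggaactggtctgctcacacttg
The windows hold 37 CpGs for DSP, 25 for DSC3, 30 and 10 for the starts of CLDN7 and 5 for CLDN4. Members that did not rise had CpG-rich windows too. CLDN1 (31) and DSG2 (36) fell in parental cells, and OCLN (26 and 28) did not pass. Whether the responses went with the CpG counts was not tested, and the parts of ATRA and decitabine, given together, cannot be told apart. Windows were listed for 26 members, 40 in all, with a median of 20 CpGs against 14 over all 35116 windows of the table. The letters CACCTG, which ZEB and Snail repressors can bind, were searched on both strands and found in 15 of the 40 windows (37.5%), against 20.6% of all windows; the downstream CLDN7 window holds 5, DSP 2, and DSC3 and CLDN4 none. The grainyhead letters AACCGGTT were in none of the 40 and in 0.134% of all windows. These are letters in a window and not binding sites, and members with several starts count several times.

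ESRP1, the epithelial splicing factor, had 0.672, 0.766 and 1.38 CPM in parental libraries with DMSO and 17.7, 22.9 and 23.6 with the drugs, 22.8-fold higher (log2 fold change 3.51 with SE 0.15, adjusted p = 4.15e-12). In resistant 1 it stood at 0.09197, 0.0955 and 0.128 before and 0.279, 0.489 and 0.321 after, and in resistant 2 at 0.814, 0.659 and 0.276 and 1.84, 2.16 and 1.45. The treated parental libraries were the only ones above 3 CPM. The rise passed in resistant 2 (0.85, adjusted p = 7.73e-04). In resistant 1 it did not pass on the log2(CPM + 1) scale (adjusted p = 0.163). It passed there on reads (edgeR, 1.76, adjusted p = 0.00532) and with a pseudocount of 0.1 CPM. The differences from the parental response were -3.22 (SE 0.21, adjusted p = 4.69e-09) and -2.67 (SE 0.21, adjusted p = 3.52e-08). GRHL1 rose in the 3 populations, from 1.64 ± 0.0408 to 5.41 ± 0.592 CPM in parental cells, to 4.05 ± 0.801 in resistant 1 and to 2.69 ± 0.223 in resistant 2, with smaller responses in both resistant populations (differences -0.55 and -0.70; the former was lost without resistant 1 DMSO replicate 2).

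CLDN7 (ENSG00000181885, chromosome 17, 7259903 to 7263983) rose strongly in every population. It went from 5.35, 6.52 and 5.04 to 39.7, 37.4 and 39.5 CPM in parental cells, from 0.774, 0.844 and 0.767 to 15.8, 19.6 and 16.8 in resistant 1, and in resistant 2 from 0.212, 0.0916 and 0.1903 to 8.23, 6.695 and 7.59. The treated resistant libraries all exceeded the untreated parental ones, yet stayed below the treated parental ones. The fold of the means was 6.88-fold in parental, 21.9-fold in resistant 1 and 45.6-fold in resistant 2 cells. The direction of the difference depended on the scale: the difference of resistant 1 from parental was 0.77 with a pseudocount of 1 CPM, 1.67 with edgeR and -0.0856 with a pseudocount of 5 CPM, and that of resistant 2 was 0.31, 2.74 and -0.74. Of its exon bases, 10.8% are shared with a gene on the same strand.

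EPCAM and TJP3 showed the same dependence on the scale. EPCAM (ENSG00000119888, chromosome 2, 47345158 to 47387601) went from 0.831, 0.766 and 0.921 to 6.605, 7.91 and 8.099 CPM in parental cells, from 0.0536, 0.0239 and 0.0256 to 0.626, 0.808 and 0.5499 in resistant 1, and in resistant 2 from 0.0354, 0.0275 and 0.0381 to 0.329, 0.3005 and 0.575. It rose in all 3 (2.19, 0.68 and 0.44; in resistant 2 not with a pseudocount of 5 CPM). Treated resistant 1 libraries overlapped the untreated parental ones, and treated resistant 2 libraries lay below them. The rise was larger in parental cells with a pseudocount of 1 CPM (differences -1.51 and -1.75 on the log2(CPM + 1) scale, adjusted p = 2.40e-08 and 3.28e-09), whereas edgeR, which compares relative changes in reads, gave differences of 1.04 and 0.41, with adjusted p = 0.0649 and 0.503, which did not pass. TJP3 rose from 0.746 ± 0.0744 to 5.71 ± 0.662 CPM in parental cells, from 0.0995 ± 0.0215 to 2.52 ± 0.262 in resistant 1, and in resistant 2 from 0.137 ± 0.0426 to 2.16 ± 0.636. Its differences were -0.25 and -0.45 on the first scale and 1.73 and 1.06 with edgeR (adjusted p = 5.73e-04 and 0.0146); on the first scale the resistant 2 call was lost without parental replicate 1 with the drugs or parental DMSO replicate 3. MARVELD3, a relative of occludin with 10, 12 and 6 reads in the untreated parental libraries and 1, 1 and 1 in resistant 2, rose to 3.35 ± 0.08500 CPM in parental, 0.482 ± 0.1201 in resistant 1 and 0.2603 ± 0.0521 in resistant 2 cells. It passed the filter through treated libraries only, so that its rises followed from the filter and support nothing. Its differences of -1.45 and -1.66 did not pass with edgeR (adjusted p = 0.495 and 0.733), and 16.6% of its exon bases lie opposite another gene, PHLPP2.

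CGN (ENSG00000143375, chromosome 1, 151510510 to 151538692) rose in parental cells, from below the level of resistant 1 to above it. It went from 1.25, 0.732 and 0.563 to 7.300, 6.56 and 6.27 CPM in parental cells (log2 fold change 2.06 with SE 0.11, adjusted p = 4.54e-11), from 2.28, 2.26 and 2.69 to 2.82, 3.11 and 2.95 in resistant 1, and in resistant 2 from 0.0885, 0.147 and 0.152 to 0.165, 0.354 and 0.329. The responses of 0.21 and 0.18 in the resistant populations did not pass, that of resistant 2 passing with edgeR (adjusted p = 0.0248), and the differences from parental were -1.85 (SE 0.15, adjusted p = 5.78e-08) and -1.87 (SE 0.15, adjusted p = 3.80e-08). F11R rose in the 3 populations (1.20, 0.62 and 1.17), and its smaller response in resistant 1 (difference -0.58, adjusted p = 0.0248) lost its call without any 1 of 6 libraries: replicate 3 with the drugs or DMSO replicate 1 or 2 of resistant 1, or replicate 1 or 2 with the drugs or DMSO replicate 2 of parental cells. OCLN and TJP1 did not pass in any population, with responses from -0.02 to 0.13.

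Of the claudins, CLDN1 and CLDN12 fell in parental cells. CLDN1 (ENSG00000163347, chromosome 3, 190305701 to 190322475) went from 139, 154 and 207 to 51.4, 48.8 and 56.5 CPM, 3.19-fold lower (log2 fold change -1.65 with SE 0.13, adjusted p = 7.16e-09). It fell less in resistant 1, from a mean of 273 to 171, 140.0 and 143, and in resistant 2, from a mean of 362 to 259.8, 243 and 204, with differences of 0.79 (SE 0.18, adjusted p = 0.00199) and 1.04 (SE 0.18, adjusted p = 1.48e-04). CLDN12 fell from 51.3 ± 5.58 to 27.96 ± 1.89 CPM in parental cells (log2 fold change -0.87 with SE 0.12, adjusted p = 9.05e-06). Its smaller fall in resistant 1 (-0.41) was lost without replicate 2 or 3 with the drugs or DMSO replicate 1 or 2. CLDN4, which separated the populations under DMSO, did not pass in parental cells (-0.30, adjusted p = 0.284) or, on this scale, in resistant 2 (0.45; edgeR 1.29, adjusted p = 0.023). Without parental DMSO replicate 3 it passed as lower in parental cells. Its fall in resistant 1 (-0.76, adjusted p = 0.0239) was lost without replicate 1 or 2 with the drugs or replicate 2 or 3 with DMSO. That call was also lost with no filter and with a pseudocount of 0.1 CPM. The low claudin CLDN6 rose from 0.0784 ± 0.0143 to 1.25 ± 0.0638 CPM in parental cells and to 0.502 ± 0.102 in resistant 1, with smaller responses in both resistant populations on both scales (differences -0.71 and -0.94, edgeR -2.53 and -2.95). CLDN11, CLDN15 and CLDN23 rose in parental cells by 0.83, 0.53 and 0.70, and CLDN9 by 0.52 from 0.203 CPM. DSG2, the third of the falling members, changed by -0.23, a call lost without parental ATRA and decitabine replicate 1 or parental DMSO replicate 3. That call was also lost with DESeq2 scaling and with a stricter posterior.

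**Figure D4:**
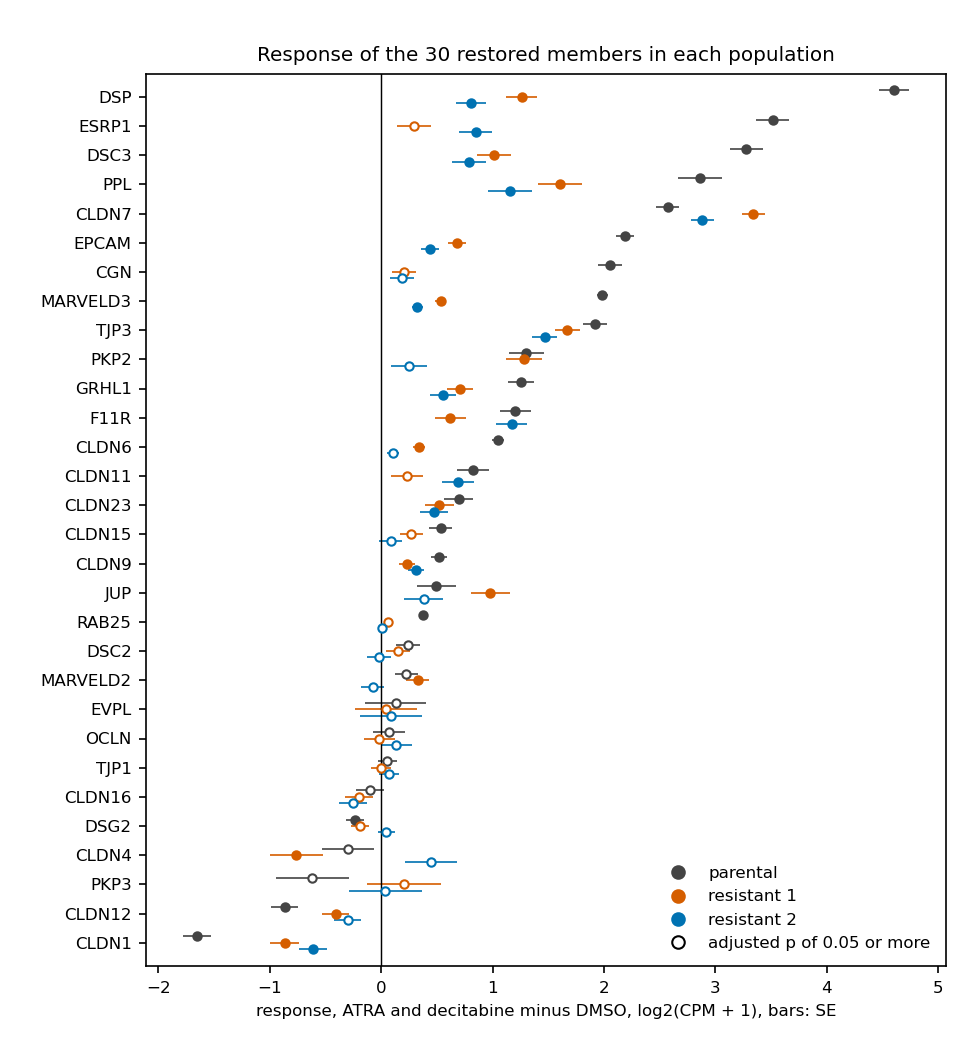
The horizontal axis is the response to ATRA and decitabine on the log2(CPM + 1) scale, with SE bars, in parental (grey), resistant 1 (orange) and resistant 2 (blue) cells; filled points passed an adjusted p of 0.05. Members are ordered by the parental response, from DSP at 4.61 to CLDN1 at -1.65, and the parental point lies farthest right for DSP, ESRP1, DSC3, PPL, EPCAM and CGN but not for CLDN7.

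Counted over the members, 15 of 30 rose and 3 fell in resistant 1, beside 14.8% and 13.6% of all genes, and 13 rose and 1 fell in resistant 2, beside 10.8% and 7.46%. Both counts of rising members include MARVELD3, whose rises followed from the filter. The count of falling members is small and moved with single libraries: in resistant 1 it was 1 without replicate 2 with the drugs and also without replicate 2 with DMSO, and in resistant 2 it was 2 without DMSO replicate 3. The difference from the parental response was tested for every member, with the parental libraries shared by both tests. In resistant 1 the response was lower than in parental cells for 13 members and higher for 3, beside 23.5% and 20.5% of all genes. In resistant 2 it was lower for 13 and higher for 3, beside 25.5% and 24.4%. Of these lower responses, edgeR also called 9 in resistant 1 (DSP, ESRP1, DSC3, CGN, PPL, CLDN6, CLDN11, F11R and GRHL1) and 10 in resistant 2 (DSP, ESRP1, DSC3, CGN, PPL, PKP2, CLDN6, GRHL1, CLDN15 and RAB25). RAB25 passed the filter of the treated table through parental libraries only, so its lower responses are no support. The CLDN9 call in resistant 1 was lost without replicate 1 with the drugs or DMSO replicate 3 of resistant 1, or without parental replicate 2 with the drugs or parental DMSO replicate 1, and also with no filter. The higher responses were CLDN1 and CLDN12 in both, with CLDN7 in resistant 1 and DSG2 in resistant 2. All of these passed as higher with edgeR too, which added TJP3 in resistant 1 and TJP3, CLDN7 and CLDN4 in resistant 2. On the log2(CPM + 1) scale TJP3 was counted among the lower responses of resistant 2. The CLDN12 call in resistant 1 (adjusted p = 0.0403) and the DSG2 call (adjusted p = 0.0424) were each lost without most of the single libraries, and the CLDN11 call in resistant 1 without replicate 1 or 3 with the drugs or DMSO replicate 2 of resistant 1, or without parental DMSO replicate 2. The CLDN11 call was also lost with a pseudocount of 5 CPM. The CLDN12 and DSG2 calls were also lost with no filter, with DESeq2 scaling and with a stricter posterior.

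**Figure D5:**
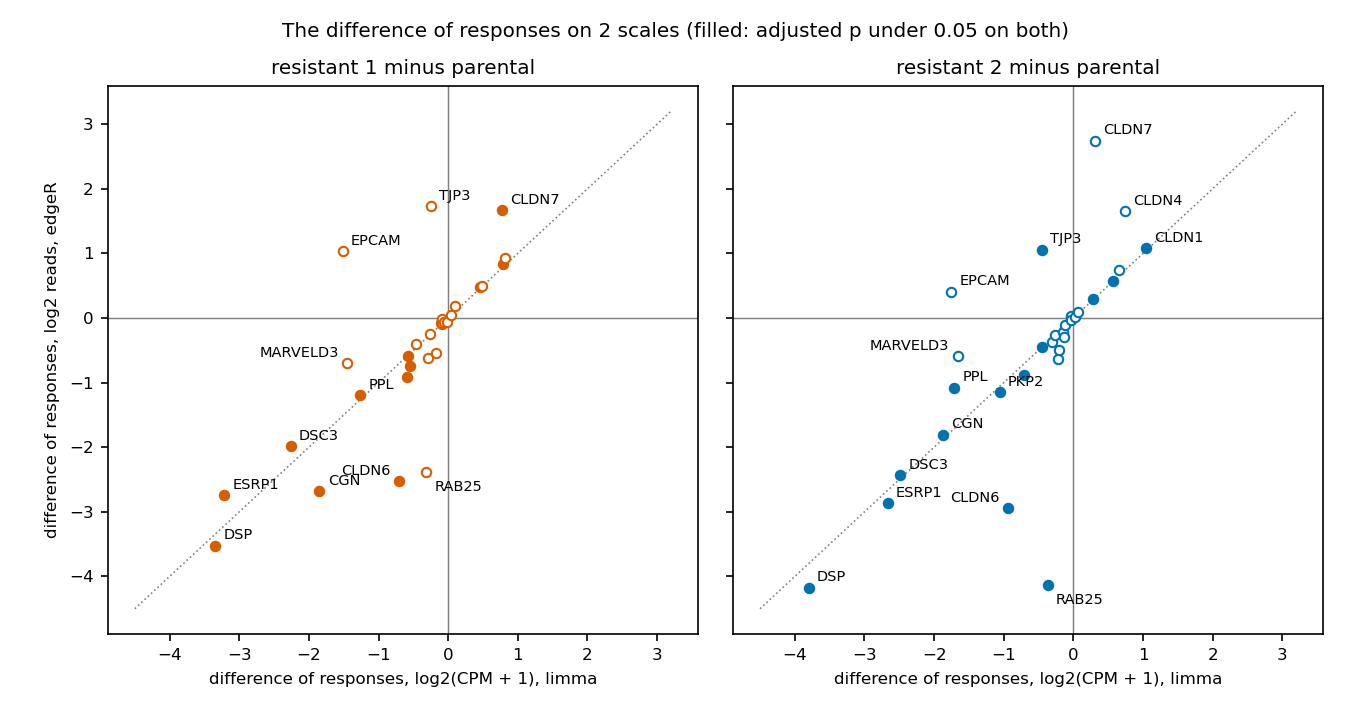
Each point is a member, with the difference of its response from the parental response on the log2(CPM + 1) scale (limma, horizontal) and on reads (edgeR, vertical) for resistant 1 (left) and resistant 2 (right); filled points had an adjusted p under 0.05 on both, and the dotted line marks equal values. DSP, ESRP1, DSC3, CGN and PPL lie low on both axes, while EPCAM and TJP3 lie left of 0 and above 0.

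With ATRA and decitabine, more members were lower than higher in each resistant population against treated parental cells. In resistant 1, 17 of 30 members were lower and 9 higher, beside 32.2% and 34.1% of 20860 genes. In resistant 2, 17 were lower and 6 higher, beside 34.5% and 37.1%. The members' median log2 fold changes were -0.70 and -0.96, against 0.02 and 0.04 over all genes. ESRP1 was 56.1-fold lower in resistant 1, at 51.99 ± 15.9 normalized counts against 2918 ± 448 (log2 fold change -5.81 with SE 0.22, adjusted p = 1.47e-09), and 10.9-fold lower in resistant 2, at 267 ± 55.9. DSC3 was 14.97-fold and 12.7-fold lower, DSP 9.45-fold and 3.63-fold lower, and EPCAM 10.9-fold and 17.5-fold lower. PPL was 18.8-fold lower in resistant 2, at 418 ± 104 against 7853 ± 1303. RAB25, listed near 0 with DMSO and counted among the lower members although it passed the filter through parental libraries only, had 46.00, 47.7 and 38.1 normalized counts in treated parental libraries, 8.79, 8.91 and 6.12 in resistant 1 and 3.99, 4.61 and 2.23 in resistant 2. CLDN1, CLDN23, OCLN and PKP2 remained higher in both resistant populations, CLDN1 at 7125 ± 533, 21688 ± 2809 and 34620.2 ± 4303 (1.60 and 2.28). CLDN12 was higher in both with the drugs (0.71 and 0.90), after its parental fall. CLDN4 kept its opposite directions (1.39 and -4.08), and CGN, at 915 ± 71.00 in treated parental cells, 424 ± 19.1 in resistant 1 and 41.6 ± 15.5 in resistant 2, was now lower in both. JUP passed in neither (0.27 and 0.00), but passed as higher in resistant 1 without resistant 1 replicate 1 or parental replicate 1. Between the treated resistant populations 13 members were higher in resistant 1 and 7 lower, beside 28.9% and 28.4% of all genes.

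For 9 members the treated values were not restored at the required posterior, so that the digits give only a least value for each library, the true value being that or a power of 10 above it. PKP1 had at least 1383, 1063 and 1038 normalized counts in the treated parental libraries, against a DMSO mean of 59.05 in the other table. CDH3 had at least 1139.5, 630.4 and 67.7 there, against 4.92, 0.958 and 5.41 with DMSO, and DSG3, the desmoglein of stratified epithelia, at least 49.5, 334 and 352 against 2.95, 0.958 and 0. ESRP2 had at least 254, 251 and 2551, against 28.6, 19.2 and 25.98, and CLDN10, for which 46.1% of exon bases lie opposite another gene, at least 26.9, 39.7 and 4.67 against 0 reads. All of these least values lie above every parental DMSO value of the same gene, each table being on its own scale. GRHL2 had at least 39.9, 4.41 and 39.7. At a posterior of 0.9, chosen after the data were seen, PKP1, CLDN3, GRHL2, ESRP2 and CDH3 could be tested. All 5 rose in parental cells (2.56, 0.46, 0.32, 3.92 and 2.64 on the log2(CPM + 1) scale, highest adjusted p = 0.0141), although on reads CLDN3 did not pass (edgeR, adjusted p = 0.0588). In resistant 1 all but GRHL2 rose as well (PKP1 0.38, CLDN3 0.57, ESRP2 1.79 and CDH3 0.40, limma, highest adjusted p = 0.0201). In resistant 2 only ESRP2 passed on that scale (0.37), while edgeR called CLDN3 and CDH3 there too. The PKP1 rise in resistant 1 was smaller than the parental one with limma (difference -2.18) but not with edgeR (0.146, adjusted p = 0.882). GRHL2 reached the filter through treated parental libraries only, so that its rise followed from the filter and supports nothing.

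The remaining genes of the pathway, 48 further junction and polarity genes (among them nectins, catenins, PARD and MAGI scaffolds), moved in both directions. Of 37 tested with DMSO, 17 higher and 7 lower in resistant 1 passed against parental, beside 29.3% and 26.6% of all genes. In resistant 2, 20 higher and 5 lower passed, beside 32.1% and 29.8%. Of 35 tested for the response, 18 higher and 10 lower passed in parental cells, beside 32.9% and 32.6% of all genes. In resistant 1, 8 higher and 6 lower passed, beside 14.8% and 13.6%. In resistant 2, 9 higher and 7 lower passed, beside 10.8% and 7.46%. NECTIN4, an adhesion molecule of adherens junctions, had the largest parental response of the list, from 0.697 ± 0.0444 to 82.1 ± 14.5 CPM in parental cells, while resistant 1 went from 7.22 ± 1.28 to 20.02 ± 3.11 and resistant 2 from 4.86 ± 0.6401 to 15.1 ± 0.805. The differences were -4.23 and -4.11 (adjusted p = 7.17e-11 and 7.79e-11). The lipoprotein receptor of tricellular junctions LSR rose as well (2.83 in parental cells), while CGNL1, the paralog of cingulin, fell (-0.94).

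A list of 20 further genes of the epithelial programme rose in part. In parental cells 11 higher and 1 lower of 16 tested passed, beside 32.9% and 32.6% of all genes. In resistant 1, 10 higher and 1 lower passed, beside 14.8% and 13.6%. In resistant 2, 8 higher and 0 lower passed, beside 10.8% and 7.46%. Only 14 of the 20 passed the filter with DMSO, so that some of the 16 entered through treated libraries only. The rises of such genes, which are in these counts, followed from the filter and support nothing. The protease inhibitor SPINT2 (3.83), the factor GRHL3 (3.25) and SPINT1 (3.07) rose most in parental cells, and SPINT2 less in both resistant populations (differences -1.97 and -3.21). CDH1, near 0 with DMSO, had 1387, 1416 and 1404 normalized counts in treated parental libraries, 65.9, 65.7 and 52.03 in resistant 1 and 30.6, 39.1 and 56.8 in resistant 2.

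Among 6 repressors of the epithelial programme, ZEB1 was higher and SNAI1 lower in both resistant populations, with DMSO and with the drugs. With DMSO ZEB1 stood at 3761 ± 625 normalized counts in parental, 6087 ± 825 in resistant 1 and 9282 ± 1285 in resistant 2 cells (log2 fold changes 0.70 and 1.31), and with the drugs at 2574 ± 113, 5456 ± 418 and 9013 ± 759. SNAI1 stood at 707 ± 159.9 normalized counts in parental, 159 ± 51.7 in resistant 1 and 120.4 ± 19.2 in resistant 2 cells with DMSO (log2 fold changes -2.17 and -2.53), and with the drugs at 3711 ± 250.4, 808 ± 222 and 519.7 ± 75.9 (-2.24 and -2.84). ZEB1 and ZEB2 fell in parental cells with the drugs (-0.81 and -0.83), and in the resistant populations as well (-0.49 and -0.37 for ZEB1, -0.71 and -0.62 for ZEB2). SNAI1 rose in parental cells (1.94, from 6.35 ± 1.44 to 27.2 ± 1.79 CPM), resistant 1 (1.44) and resistant 2 (1.16). SNAI2 was higher in resistant 2 with DMSO (2.07) and lower in resistant 1 (-0.53), and TWIST2 was lower in resistant 1 (-0.98).

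Markers of other cell types were also read in these cultures of a cell line. The sums below cover fewer genes with the drugs than with DMSO, each table being on its own scale, and do not show how a list moved. The genes left out include CD14 and COL1A1, at 312 ± 124 and 820 ± 247 in parental cells with DMSO. In parental cells the restored ESAM stood at 23.0 ± 11.8 with DMSO and 343 ± 45.5 with the drugs. COL3A1 stood at 6475 ± 1063 and 1955 ± 359. Of 8 endothelial markers, 5 were restored, with a summed level over all 8 of 101 to 103 normalized counts in parental libraries with DMSO, 360.2 to 463 in resistant 1 and 201 to 302 in resistant 2. Over the 5 with the drugs it was 531 to 622, 718 to 1028 and 322 to 392. CDH5, TIE1 and CLDN5 were at 0 in parental libraries with DMSO, and the most abundant of the 5 with the drugs was ESAM, also on the list of further junction genes, in parental and resistant 2 cells and KDR in resistant 1. The part of these markers in the junction results was not tested. The fibroblast list, with 8 genes, summed to 8082 to 10046 in parental libraries with DMSO, 485 to 549 in resistant 1 and 3543 to 4591 in resistant 2, led in parental cells by COL3A1, and over the 5 restored genes to 3556 to 4302, 998.6 to 1161 and 1339.7 to 2205 with the drugs. The 8 immune markers summed to 203 to 422, 152 to 229 and 133 to 217, with CD3E and MS4A1 at 0 in the parental libraries, and over the 3 restored genes to 97.3 to 133, 47.4 to 80.2 and 147 to 183 with the drugs. The 8 epithelial markers summed to 225191 to 272467, 306191 to 445925 and 137970.0 to 206517 with DMSO, and over the 7 restored genes to 336226 to 441915, 398212 to 528115 and 179721 to 231463 with the drugs. Of its keratins, KRT8 averaged 180048 ± 33077 in treated parental cells, and KRT19 84570.0 ± 12790.4 with DMSO and 45726 ± 8385 with the drugs there, each table being on its own scale.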

How the data were processed

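RNA was sequenced with a stranded mRNA kit. Per the submitters' processing notes, reads went through FastQC and MultiQC, STAR, featureCounts and DESeq2 with GRCh38; no versions and no strand setting for the counts appear in the sources used here. Per the file headers, the authors deposited a signal per gene, read counts divided by DESeq2 size factors, as 2 separate tables. The DMSO values gave back whole reads for 100% of values (tolerance 0.01). The other table, with ATRA and decitabine, was deposited with its decimal points lost. Each value there was restored by weighing, per gene, the possible powers of 10 for the 9 libraries against the spread seen with DMSO, and a gene was used at a posterior of at least 0.99. Of 25199 genes at the filter 82.8% were restored, from 55.4% at a mean of 10 to 30 normalized counts to 97.4% above 1000. When the DMSO values were stripped of their points in the same way, 28 of 17546 restored genes came back wrong. The check took its spread within groups from the intact DMSO values, so that the share of errors may be too low. It also left out the DMSO differences between populations, which the restoration of the treated values allowed for. Without those differences, 0 of the treated genes restored both ways came back otherwise.

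Populations were compared within each table with limma 3.58.1 (trend) in R 4.3.3 on log2(normalized count + 1), fitting 3 groups together. Responses and their differences used recovered reads of the 18 libraries, scaled together by TMM, as log2(CPM + 1). Both scales understate changes of low genes. p-values were adjusted by Benjamini-Hochberg over all genes tested, with a threshold of 0.05. They measure the spread between these samples only. A simulated test found 26.9%, 74.6% and 97.0% of changes of 1.5, 2 and 4-fold in resistant 1 against parental with DMSO (21643 genes), and 40.3%, 80.6% and 98.5% for the parental response (21064 genes). The changed genes were drawn only from those above a minimum mean of reads, so these shares do not cover the lowest genes. For the response the simulation filtered over the 18 libraries together, unlike the test itself. Alternatives were pseudocounts of 5 and 0.1, filters, TMM or DESeq2 1.42.0 scaling, a replicate block, edgeR 4.0.16 on reads, a stricter posterior and one of 0.9, and leaving out each library. The pseudocount of 0.1 CPM and the posterior of 0.9 were chosen after the data were seen.

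The members and lists were chosen with earlier results of these data known. Members were named by a rule: up to 4 per direction and comparison with the largest change, those called in opposite directions or with differing responses, and 10 genes whatever their values; CDH1, the marker genes and the unrestored members beyond this were chosen after their values were seen. Gene lengths and overlaps are from GENCODE 29. Replicates of a group differed by 8.98 to 229 times the sampling noise (chi-square per degree of freedom), so none was counted as a repeat of another.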

Additional observations from a re-analysis of the deposited data

Results flagged for a closer look

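Responses to ATRA and decitabine differed between a resistant population and parental cells for 16 members in each resistant population by a test of the difference itself (limma on log2(CPM + 1), Benjamini-Hochberg adjusted over 20951 genes). In resistant 1, 13 of 30 members were lower and 3 higher, beside 23.5% and 20.5% of all genes. In resistant 2, 13 were lower and 3 higher, beside 25.5% and 24.4%. Groups of 3 were not checked for a library far from the others.

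In resistant 1, the desmosome genes DSP (-3.347), DSC3 (-2.264) and PPL (-1.262) had lower log2 responses than in parental cells. The tight junction genes CGN (-1.850), MARVELD3 (-1.450), CLDN6 (-0.7094), CLDN11 (-0.5954), F11R (-0.5813) and CLDN9 (-0.2828) did too, as did the regulators and adhesion genes ESRP1 (-3.217), EPCAM (-1.513), GRHL1 (-0.5486) and RAB25 (-0.3175). CLDN12 (0.4596), CLDN7 (0.7699) and CLDN1 (0.7888) had higher values, which for CLDN12 and CLDN1 stand for smaller falls.

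In resistant 2, DSP (-3.802), DSC3 (-2.489), PPL (-1.711) and PKP2 (-1.057) had lower responses among the desmosome genes. CGN (-1.872), MARVELD3 (-1.661), CLDN6 (-0.9429), TJP3 (-0.4515) and CLDN15 (-0.4460) did among the tight junction genes, and ESRP1 (-2.667), EPCAM (-1.751), GRHL1 (-0.7028) and RAB25 (-0.3708) among the others. DSG2 (0.2816), CLDN12 (0.5685) and CLDN1 (1.044) had higher values. On reads with edgeR, the differences of EPCAM and TJP3 had the opposite sign, and those of MARVELD3 in both populations and of RAB25 and CLDN9 in resistant 1 did not pass. RAB25 passed the filter of the treated table through parental libraries only, so its differences support nothing. The CLDN9 call was also lost with no filter, with a pseudocount of 0.1 CPM, and without any 1 of 4 libraries: replicate 1 with the drugs or DMSO replicate 3 of resistant 1, or replicate 2 with the drugs or DMSO replicate 1 of parental cells.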

How the results depend on the processing

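Over all alternatives, 5071 single-gene values kept their direction and side of the threshold, 161 lost and 90 gained a call, and 8 reversed. A stricter posterior, which leaves fewer members to test, gave 9 members lower in treated resistant 2 against parental, 8 higher and 4 lower in treated resistant 1 against resistant 2, 12 rising in parental cells and 8 in resistant 2, and smaller counts of differing responses: 1 higher and 7 lower in resistant 1, 8 lower in resistant 2. Higher responses than parental numbered 1 in resistant 1 with a pseudocount of 5 CPM, and in resistant 2 numbered 6 with edgeR and 5 with a pseudocount of 0.1 CPM, where relative changes of low genes weigh more. The reversed differences were those of CLDN7 with a pseudocount of 5 (-0.0856 in resistant 1, -0.74 in resistant 2), of EPCAM with edgeR (1.04 and 0.41), and of TJP3 with edgeR (1.73 and 1.06) and a pseudocount of 0.1 CPM (0.95 and 0.48). Leaving out each library gave 1 to 3 falling members in resistant 1 and 1 to 2 in resistant 2. The replicate block changed no count by more than 1.5 times (19 rising and 3 falling in parental cells, 3 higher and 13 lower differences in resistant 1, 2 and 13 in resistant 2). Same-numbered libraries of different populations correlated at -0.28 to 0.376 with DMSO and -0.102 to 0.231 with the drugs, so the numbers were not taken as pairs. Values of low genes in the treated table are limited by the restoration, which failed more often at low levels.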
